A study of Mus musculus with 12 samples.

Results

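Astrocyte identity and reactivity markers were followed in RNA from sorted oligodendrocytes. The 10 genes Gfap, Vim, Aqp4, Aldh1l1, Aldoc, Slc1a2, Slc1a3, S100b, Sox9 and Lcn2 were found by symbol among the 55376 symbols of the count table. All 10 were among the 17716 genes that passed the filter of at least 1 CPM in at least 4 samples. CPM is the count per 1000000 counts of a library, without TMM scaling in the filters and after TMM scaling elsewhere. The cells were O1+ CD45- cells sorted by FACS from C57BL/6 mouse brains at postnatal day 40, where O1 is a surface lipid of differentiating oligodendrocytes and CD45 a leukocyte protein, and each of the 12 samples held 2 pooled brains. There were 4 WT samples (replicates 1, 3, 5 and 6), 4 Cnp-Cre Jab1fl/fl samples (replicates 1 to 4), in which the promoter of Cnp, a gene of oligodendrocytes, drives the Cre that removes Jab1, and 4 Cnp-Cre Jab1fl/fl p21CIP1-/- samples (replicates 1, 2, 3 and 5), called double mutants here, which also carry a p21CIP1 knockout. This Cre is active in Schwann cells as well, and the p21CIP1 knockout is not limited to 1 cell type. The authors list a strain other than C57BL/6 for the p21CIP1 knockout line, with backcrossing. Any strain difference that remained in the double mutants was not tested. The comparisons ask how these markers stood in sorted cells of each mutant against WT, and whether they differed between the mutants.

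Astrocytes take up glutamate, buffer potassium and water, and contact blood vessels and nodes of axons. Upon injury they become reactive: they fill with the intermediate filaments made of Gfap and Vim, secrete proteins such as Lcn2, and adjust many metabolic and signaling genes. None of these genes is made by astrocytes only. Vim is also expressed in endothelial cells, microglia and ependymal cells, S100b in oligodendrocytes, Sox9 and Slc1a3 in progenitor cells, and Lcn2 in neutrophils and inflamed epithelium and endothelium.

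Total counts lay between 90757237 and 153495112 for WT, between 61485556 and 111365583 for Cnp-Cre Jab1fl/fl, and between 91564521 and 116034670 for double mutants. Cops5, which encodes JAB1, was at 46.3 to 134 CPM in WT samples, at 44.9 to 89.0 CPM in samples of Cnp-Cre Jab1fl/fl and at 44.2 to 90.4 CPM in double mutants, so the ranges overlapped and the gene did not pass the test. Cdkn1a, which encodes p21CIP1, was at 16 to 85.4 CPM in WT samples, at 379 to 636 CPM in samples of Cnp-Cre Jab1fl/fl and at 64.7 to 103 CPM in double mutants. Cdkn1a thus still had counts in every double-mutant sample, and the deleted part of the gene is not given in the sources used here, so the counts over the whole gene do not check that label. By qPCR on sorted oligodendrocytes, the authors reported less Cops5 in Cnp-Cre Jab1fl/fl than in WT. They could not detect Cdkn1a by qPCR in sorted oligodendrocytes of double mutants. Markers of mature oligodendrocytes were the most abundant of the cell type lists in WT, where their 10 genes summed to 45452 to 105469 CPM, against 8962 to 35104 CPM in Cnp-Cre Jab1fl/fl and 16848 to 52603 CPM in double mutants. Markers of other cell types were present as well. The 11 microglial markers summed to 85.7 to 227 CPM in WT samples, to 807 to 1860 CPM in samples of Cnp-Cre Jab1fl/fl and to 253 to 12949 CPM in double mutants, with the highest sum in double-mutant replicate 3 and the next at 1334 CPM, and the 5 choroid plexus markers summed to 296 to 4094, 6484 to 24543 and 5416 to 24011 CPM. Because the samples are bulk RNA, a change in the number of cells of a type and a change in RNA per cell cannot be told apart. No source states that a library was prepared in a separate batch, and the p-values measure the spread between samples.

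The identity genes of astrocytes were abundant in every sample, WT included, and none of them differed between genotypes by more than the spread between samples. Aldoc, the brain form of the glycolytic enzyme aldolase, was at 2631, 2263, 1472 and 2102 CPM in the 4 WT samples, at 2571, 1808, 1757 and 821 CPM in Cnp-Cre Jab1fl/fl and at 1094, 2261, 2972 and 2495 CPM in double mutants. Slc1a3, the glutamate transporter GLAST, was at 2172, 3612, 1252 and 2387 CPM in WT, at 1855, 1639, 1426 and 792 CPM in Cnp-Cre Jab1fl/fl and at 874, 2766, 2434 and 1445 CPM in double mutants. Slc1a2, the glutamate transporter GLT-1 that clears most synaptic glutamate, was at 1849, 1583, 843 and 2090 CPM in WT, at 1432, 1039, 1809 and 918 CPM in Cnp-Cre Jab1fl/fl and at 905, 1781, 1871 and 1038 CPM in double mutants. In all 3 genes the ranges of the genotypes overlapped. Replicate 4 of Cnp-Cre Jab1fl/fl and replicate 1 of the double mutants were the lowest of their genotype for Aldoc, Slc1a3 and Slc1a2 alike.

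The other identity genes behaved in the same way across samples. Aqp4, the water channel of astrocyte endfeet, was at 526, 717, 331 and 529 CPM in WT, at 422, 429, 470 and 176 CPM in Cnp-Cre Jab1fl/fl and at 208, 417, 580 and 345 CPM in double mutants. Aldh1l1, a folate enzyme used as a general astrocyte marker, was at 143, 291, 80.5 and 148 CPM in WT, at 107, 90.9, 97.1 and 42.1 CPM in Cnp-Cre Jab1fl/fl and at 46.0, 188, 210 and 107 CPM in double mutants. Sox9, a transcription factor of astrocytes and of glial progenitors, was at 105, 304, 74.8 and 183 CPM in WT, at 133, 142, 133 and 94.2 CPM in Cnp-Cre Jab1fl/fl and at 65.6, 240, 221 and 212 CPM in double mutants. WT replicate 3 was the highest sample of all 12 for Aqp4, Aldh1l1, Slc1a3 and Sox9, and WT replicate 5 was the lowest WT sample for each of them.

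**Figure D1:**
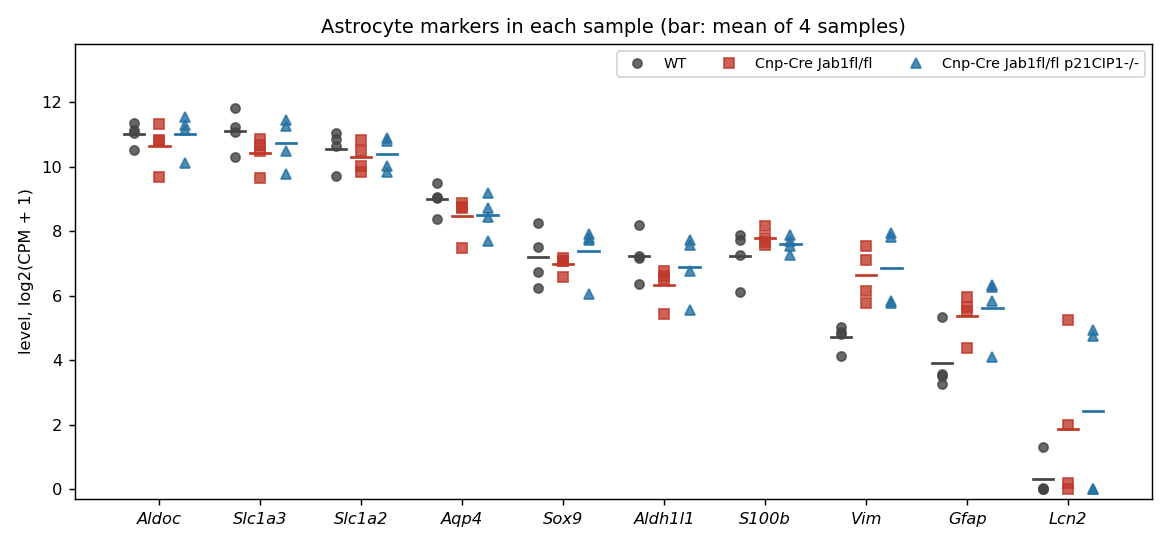
Level of each of the 10 genes, as log2(CPM + 1), in the 12 samples; circles are WT, squares Cnp-Cre Jab1fl/fl and triangles Cnp-Cre Jab1fl/fl p21CIP1-/-, and the bar is the mean of 4 samples. The identity genes overlapped between genotypes, the 8 mutant samples lay above the 4 WT samples for Vim, and Lcn2 was high in 1 sample of Cnp-Cre Jab1fl/fl and 2 of the double mutants.

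To compare genes with one another, CPM were divided by the exonic length in kilobases. Per kilobase, the order of the mean levels in WT was Aldoc (711 ± 163 CPM per kb, SD, n = 4), Slc1a3 (535 ± 221), Slc1a2 (132 ± 44.7), S100b (112 ± 49.6), Aqp4 (89.0 ± 26.7), Sox9 (40.3 ± 24.7), Aldh1l1 (39.7 ± 21.3), Vim (11.8 ± 2.94), Gfap (4.25 ± 3.63) and Lcn2. Several neighbors in this order could not be separated. Slc1a2 was above S100b in 2 of 4 WT samples, and Sox9 was above Aldh1l1 in 2 of 4. Slc1a3 was above Slc1a2, Aqp4 above Sox9, Aldh1l1 above Vim, and Vim above Gfap in 4 of 4 WT samples. For Cnp-Cre Jab1fl/fl, Vim (51.0 ± 28.03 CPM per kb) followed Aqp4 and preceded Sox9 by mean, and it was above Sox9 in 2 of 4 samples. In double mutants Vim (66.4 ± 47.9 CPM per kb) was next to Aqp4, above it in 2 of 4 samples.

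Set beside myelin genes on the same per-kilobase scale, the identity markers were not trace transcripts. The level of Aldoc was 27.2 to 113% of that of Mog, a myelin surface protein, in the 4 WT samples, and it exceeded Mog in 2 of 4. In Cnp-Cre Jab1fl/fl it was 118 to 774% of Mog and exceeded it in 4 of 4 samples, and in double mutants it was 31.5 to 276% and exceeded it in 3 of 4. Most myelin genes were themselves lower in mutants than in WT. Of the 10 mature oligodendrocyte markers, 9 had a negative log2 fold change in each mutant. By edgeR 6 were called lower in Cnp-Cre Jab1fl/fl and 0 in double mutants, beside 7.64% and 0.192% of all genes called. Mbp was not lower in Cnp-Cre Jab1fl/fl, at 0.27 (SE 0.51, edgeR adjusted p = 0.811). Cnp, which encodes an enzyme of noncompacted myelin and whose promoter drives the Cre, was at -3.27 there (SE 0.61, edgeR adjusted p = 0.0105).

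In Cnp-Cre Jab1fl/fl against WT, 1 of the 10 genes passed the test, with 1 higher and 0 lower, while 7.64% of all 17716 genes tested passed it. Differences between the genotypes were tested with edgeR's quasi-likelihood test, two-sided, with Benjamini-Hochberg adjustment over all genes tested and a threshold of 0.05. The median log2 fold change of the 10 genes was -0.29, beside 0.02 over all genes, with 4 genes above and 6 below 0. Among the identity genes the largest difference was that of Aldh1l1, with a log2 fold change of -0.98 (SE 0.42, adjusted p = 0.196), followed by Slc1a3 (-0.72, SE 0.40, adjusted p = 0.318) and Aqp4 (-0.49, SE 0.37, adjusted p = 0.489). Sox9 (-0.40, SE 0.41), Slc1a2 (-0.29, SE 0.37) and Aldoc (-0.28, SE 0.38) differed from WT by about 1 SE or less, with adjusted p-values of 0.623, 0.706 and 0.727.

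**Figure D2:**
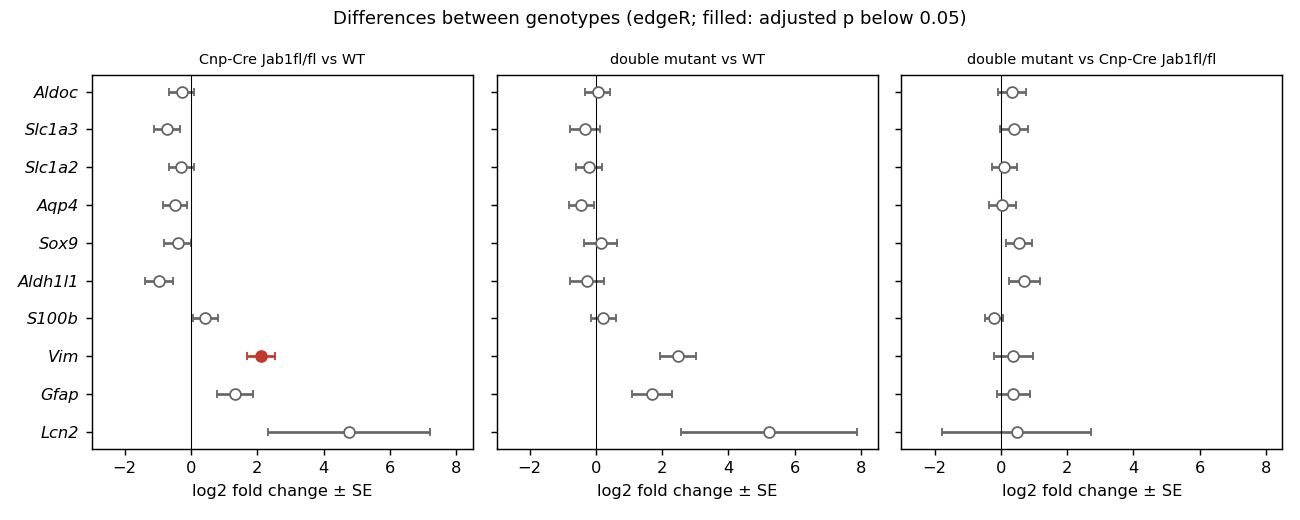
The log2 fold change of each gene with its standard error in the 3 comparisons, 8 samples each; the filled point passed an adjusted p of 0.05. Only Vim in Cnp-Cre Jab1fl/fl against WT passed, Gfap and Lcn2 lay above 0 in both mutants against WT, and every point of double mutants against Cnp-Cre Jab1fl/fl lay within 2 standard errors of 0.

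The same direction was seen in a longer list of 28 other genes of astrocyte identity. Against WT, 26 of the 28 were below 0 and 2 above in Cnp-Cre Jab1fl/fl, and their median log2 fold change was -0.67. Of the 28, 0 passed the test, with 7 lower and 0 higher at an unadjusted p below 0.05 by edgeR. Of all genes, 7.64% passed and 22.5% had an unadjusted p below 0.05 in this comparison, higher or lower. The 3 with the smallest p were Slc7a10, an amino acid transporter (-1.13, SE 0.39, edgeR adjusted p = 0.112), Slc6a11, a GABA transporter (-1.50, SE 0.55, adjusted p = 0.132), and Slc4a4, a bicarbonate transporter (-1.17, SE 0.45, adjusted p = 0.144). The CPM of the 28 genes summed to 17510 to 39877 in WT samples, to 12126 to 23071 in samples of Cnp-Cre Jab1fl/fl and to 13629 to 35940 in double mutants, so that the sums overlapped. In double mutants against WT 22 of the 28 genes were below 0, with a median of -0.28. There 0 passed the test or an unadjusted p of 0.05, beside 0.192% and 12.4% of all genes.

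Vim was the member that passed. It encodes vimentin, the intermediate filament of reactive astrocytes and of mesenchymal and endothelial cells, on GRCm38 chromosome 2 from 13573927 to 13582826 on the plus strand. It was at 31.4, 28.5, 16.6 and 27.1 CPM in WT, at 136, 70.0, 53.8 and 187 CPM in Cnp-Cre Jab1fl/fl and at 53.7, 56.3, 227 and 246 CPM in double mutants. The lowest mutant sample lay above the highest WT sample in both mutants, and the mutant samples spread more widely than the WT samples. The log2 fold change in Cnp-Cre Jab1fl/fl against WT was 2.11 (SE 0.42, edgeR adjusted p = 0.0132, n = 4 and 4). It passed in 15 of 17 alternatives, the exceptions being the fit with the replicate number as a block (1.54, adjusted p = 0.204) and that with the mean level of the 28 other identity genes as a covariate (1.92, adjusted p = 0.106). Groups that do not overlap were seen for 1 of the 10 members in that comparison, and for 17.1% of all genes tested.

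In double mutants against WT the log2 fold change of Vim was larger, 2.49 (SE 0.55), with an adjusted p of 0.102 that missed the threshold. In that comparison 0 of the 10 members and 0.192% of all genes tested passed, which were 31 genes higher and 3 lower, and 8.1% of all genes had groups that do not overlap. The call for Vim there depended on the processing: it passed with DESeq2 (adjusted p = 1.36e-04), with a filter of a mean of at least 10 CPM (adjusted p = 0.0426), and without replicate 1 of the double mutants (2.76, adjusted p = 0.0344), while the adjusted p of the 17 alternatives ran from 1.36e-04 to 0.512. Both mutants were set against the same 4 WT samples, so the 2 results are not independent of each other.

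The 3 genes most like Vim in log2(CPM + 1) over the 12 samples were Ifitm3, an antiviral membrane protein (Pearson's r = 0.97, Spearman's rho = 0.95), B2m, the light chain of MHC class I (r = 0.97, rho = 0.97), and Ly6e, a surface protein induced by interferon (r = 0.96, rho = 0.94). These values are descriptions over samples that share 1 protocol and that fall into 3 genotypes, and no test was made of them. With the mean of each genotype removed, the r of Vim was 0.92 with the A1 and 0.91 with the A2 reactive astrocyte genes, 0.86 with the endothelial markers, 0.67 with the pan-reactive genes, 0.66 with the ependymal markers, 0.63 with the microglial markers and 0.24 with the 28 astrocyte identity genes.

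The endothelial list moved with Vim. Its 6 genes summed to 267 to 627 CPM in WT samples, to 683 to 4580 CPM in samples of Cnp-Cre Jab1fl/fl and to 553 to 4441 CPM in double mutants. In Cnp-Cre Jab1fl/fl against WT 5 of 6 were called higher, with a median log2 fold change of 2.55, beside 7.64% of all genes called. The 3 with the smallest p were Cdh5, the endothelial cadherin (2.99, SE 0.53, edgeR adjusted p = 0.0080), Flt1, a VEGF receptor (2.98, SE 0.54, adjusted p = 0.0090), and Slco1a4, a transporter of brain capillaries (2.67, SE 0.55, adjusted p = 0.0151). Their part in the result for Vim was not tested.

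Gfap, the other filament gene, lies on GRCm38 chromosome 11 from 102887336 to 102900912 on the minus strand. It was at 10.4, 39.4, 8.51 and 10.9 CPM in WT, at 60.5, 49.2, 44.5 and 19.7 CPM in Cnp-Cre Jab1fl/fl and at 15.96, 75.3, 79.0 and 55.7 CPM in double mutants. WT replicate 3, at 39.4 CPM, stood above the lowest sample of each mutant, and 3 of 4 samples in each mutant lay above all WT samples. The log2 fold change was 1.33 in Cnp-Cre Jab1fl/fl (SE 0.54, edgeR adjusted p = 0.169) and 1.70 in double mutants (SE 0.61, adjusted p = 0.287), so neither passed. Without WT replicate 3 the value in Cnp-Cre Jab1fl/fl was 2.11 with an adjusted p of 0.0265, and the adjusted p of the 17 alternatives ran from 0.0157 to 0.401, with 3 of them passing. The gene Gm26668 overlaps Gfap on the opposite strand, with 535 to 2202 counts per sample, and reads of the 2 genes cannot be told apart if strand was not used in counting.

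The sequences before the start sites of both filament genes are shown because Gfap and Vim are the members whose levels differed most clearly by genotype relative to astrocyte genes. They are 60 bases of GRCm38.p6 from RefSeq, 50 before and 10 from the annotated start, for Gfap at chr11:102897191-102897250 on the minus strand and for Vim at chr2:13574261-13574320 on the plus strand. Capitals mark TTCNNNGAA, the letters bound by STAT proteins, in Gfap, and the TATA box letters TATAAA in Vim.
Gfap: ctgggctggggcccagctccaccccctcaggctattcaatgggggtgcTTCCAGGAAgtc
Vim: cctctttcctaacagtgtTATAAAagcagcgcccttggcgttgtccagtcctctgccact
Both strands of the window of 250 bases before and 50 after each start were searched. The STAT letters were in 8.3% of all 32851 promoters of the table and, among the 8 members it holds, in those of Aldoc, Gfap and Slc1a3. The TATA letters were in 13.6% of all promoters and in those of Slc1a3 and Vim. Both RefSeq starts lie inside the GENCODE ranges given for these genes and not at their ends. A match of letters is not a bound site.

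With the genotype means removed, the level of Gfap followed that of most astrocyte identity genes of the same sample. The r of Gfap over the 12 samples was then 0.95 with Aldh1l1, 0.92 with Slc1a3, 0.91 with Sox9 and 0.87 with Aqp4. It was 0.78 with Aldoc and 0.54 with Slc1a2, and 0.21 with Vim and -0.74 with S100b. WT replicate 3, the WT sample with the most Gfap, was also the WT sample with the most Aldh1l1, Aqp4, Slc1a3 and Sox9. Over all 12 samples the 3 genes most like Gfap were Tnfrsf21, a death receptor (r = 0.91, rho = 0.94), Cldn2, a tight junction protein of choroid plexus epithelium (r = 0.90, rho = 0.92), and Gas6, a ligand of TAM receptors (r = 0.90, rho = 0.88), as descriptions with no test.

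Set against Aldh1l1 of the same sample, Gfap separated both mutants from WT, while the mutants overlapped with each other. Its CPM was 7.29, 13.5, 10.6 and 7.39% of that of Aldh1l1 in the 4 WT samples, 56.8, 54.1, 45.9 and 46.9% in samples of Cnp-Cre Jab1fl/fl, and it was 34.7, 40.1, 37.6 and 52.1% in double mutants. The means were 9.70 ± 2.98% in WT samples, 50.9 ± 5.38% in samples of Cnp-Cre Jab1fl/fl and 41.1 ± 7.63% in double mutants (SD, n = 4), and both mutants lay above every WT sample. This ratio was chosen after the values had been seen. With each of the 6 identity genes as the denominator in turn, Cnp-Cre Jab1fl/fl lay above WT with 5 of the 6, the exception being Slc1a2, and double mutants lay above WT with 4 of the 6, the exceptions being Aldoc and Slc1a2. Relative to the mean log2(CPM + 1) of the 28 other identity genes, called the astrocyte level here, Gfap was at -5.28 in WT samples, at -3.24 in samples of Cnp-Cre Jab1fl/fl and at -3.26 in double mutants by mean, and on that scale 16.6% of all genes had Cnp-Cre Jab1fl/fl samples that do not overlap with WT and 5.93% had double-mutant samples that do not.

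**Figure D3:**
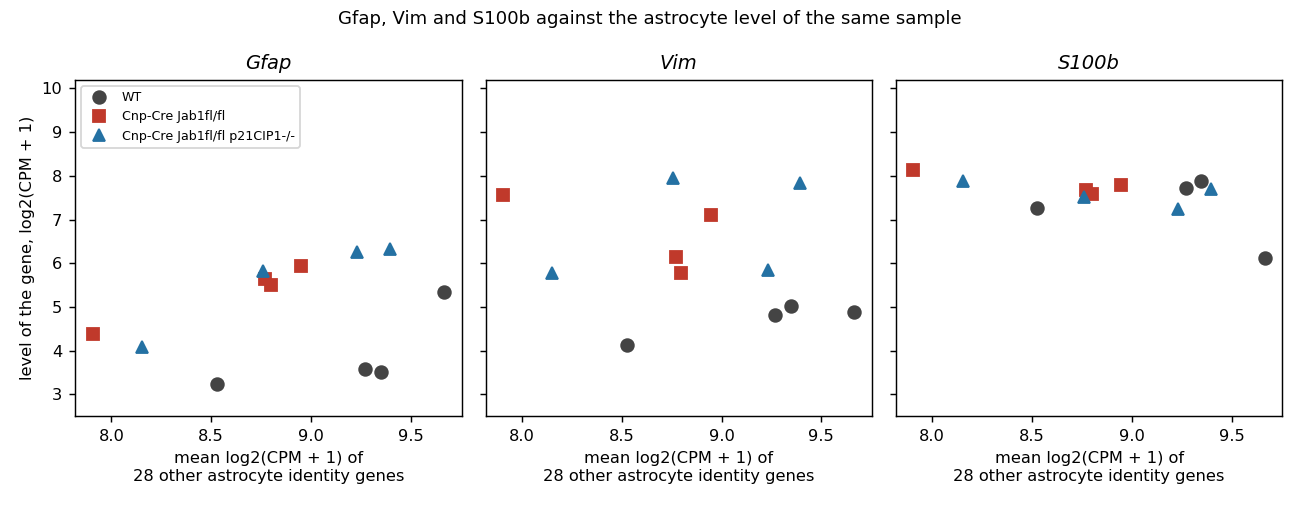
Level of Gfap, Vim and S100b, as log2(CPM + 1), against the mean log2(CPM + 1) of 28 other astrocyte identity genes, 1 point per sample, with circles for WT, squares for Cnp-Cre Jab1fl/fl and triangles for double mutants. At a given astrocyte level the mutant samples lay above the WT samples for Gfap and Vim, while S100b overlapped and WT replicate 3, the sample farthest to the right, had the least S100b.

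The astrocyte level was then entered as a covariate in the edgeR fit, an alternative chosen after seeing the data. In that fit Gfap passed in Cnp-Cre Jab1fl/fl against WT, with a log2 fold change of 2.37 (SE 0.47, adjusted p = 0.0295), where 3.05% of all genes passed. It was 2.24 in double mutants against WT (SE 0.41, adjusted p = 0.0516) and -0.19 between the mutants (SE 0.31, adjusted p = 0.998). Vim did not pass in this fit, at 1.92 in Cnp-Cre Jab1fl/fl (SE 0.58, adjusted p = 0.106) and 2.74 in double mutants (SE 0.54, adjusted p = 0.0604). The astrocyte level itself was lower in the mutants by mean, so the covariate and the genotype share part of their variation.

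Vim taken as a percent of Aldh1l1 was more variable among the mutants than Gfap. It was 9.79 to 21.9% in WT samples, 55.4 to 444% in samples of Cnp-Cre Jab1fl/fl and 30.0 to 230% in double mutants. The highest values were those of Cnp-Cre Jab1fl/fl replicate 4, which had the lowest Aldh1l1 of all samples, and of double-mutant replicate 5. With each of the 6 identity genes as the denominator, Vim in Cnp-Cre Jab1fl/fl lay above WT with 6 of 6. In double mutants it did so with 5 of 6, the exception being Sox9.

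S100b, a calcium-binding protein of astrocytes and of maturing oligodendrocytes, did not follow the identity genes. It was at 234, 68.6, 152 and 210 CPM in WT, at 220, 203, 191 and 282 CPM in Cnp-Cre Jab1fl/fl and at 236, 151, 207 and 183 CPM in double mutants. WT replicate 3 was the lowest of the 12 samples although it had the most Aldh1l1, and Cnp-Cre Jab1fl/fl replicate 4 was the highest although it had the least. The log2 fold change was 0.43 in Cnp-Cre Jab1fl/fl (SE 0.37, edgeR adjusted p = 0.545) and 0.22 in double mutants (SE 0.38, adjusted p = 0.858). The genes most like S100b were Mrps36, a mitochondrial protein (r = 0.94, rho = 0.85), Bloc1s1, a subunit of a complex for lysosome positioning (r = 0.93, rho = 0.78), and Ndufb1-ps (r = 0.92, rho = 0.62). Dip2a overlaps S100b on the opposite strand, with 1823 to 37719 counts per sample. Its level was highest in WT replicate 3, at 244 CPM, where S100b was lowest, and next highest in double-mutant replicate 1, at 179 CPM, where S100b was the second highest.

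The other identity genes resembled each other. The gene most like Aldh1l1 among all 17716 was Slc1a3 (r = 0.98, rho = 0.96), and the reverse held as well. Next for both came Ntrk2, a neurotrophin receptor whose truncated form is expressed by astrocytes (r = 0.98 with each). Gja1, the gap junction protein of astrocytes, was among the 3 genes most like Aqp4 (r = 0.94, rho = 0.80). Aldoc was most like Kcnk1, a potassium channel (r = 0.98, rho = 0.94), Sox9 most like Lgi4, a secreted glial protein (r = 0.93, rho = 0.90), and Slc1a2 most like Camk2d, a kinase (r = 0.89, rho = 0.86).

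Lcn2, lipocalin 2, is an iron-siderophore binding protein that reactive astrocytes secrete, and its pattern was that of single libraries rather than of genotypes. Its raw counts were 0, 3, 0 and 135 in WT, 0, 16, 200 and 2757 in samples of Cnp-Cre Jab1fl/fl, and they were 2798, 0, 2666 and 0 in double mutants. In CPM, Cnp-Cre Jab1fl/fl replicate 4 was at 37.0, double-mutant replicate 1 at 29.9 and double-mutant replicate 3 at 26.0, and every other sample was at 2.94 or less. A count of 0 allows up to 3 counts at this depth, for counting error only. The log2 fold change was 4.76 in Cnp-Cre Jab1fl/fl (SE 2.44, edgeR adjusted p = 0.279) and 5.22 in double mutants (SE 2.66, adjusted p = 0.461), both of them decided by 1 or 2 libraries. In Cnp-Cre Jab1fl/fl the value was 1.44 without its replicate 4 and 10.19 without WT replicate 6, and it did not pass with any sample left out.

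The libraries with much Lcn2 shared other transcripts. The 3 genes most like Lcn2 were Serpinb8, a protease inhibitor (r = 0.97, rho = 0.87), Lrg1, a secreted glycoprotein of the acute phase and of activated endothelium (r = 0.95, rho = 0.75), and Asb11 (r = 0.93, rho = 0.62), and these correlations rest on the same 3 libraries. Lrg1 had 4755 counts in Cnp-Cre Jab1fl/fl replicate 4, 3698 in double-mutant replicate 1 and 7884 in double-mutant replicate 3, and at most 340 in any other sample. Serpinb8 had 440, 473 and 438 counts in those 3 libraries, 152 in Cnp-Cre Jab1fl/fl replicate 3 and 0 elsewhere.

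Neutrophils store lipocalin 2 in granules and carry CD45, so that the sort for CD45- cells is meant to remove them. Of 10 neutrophil markers 0 passed the filter. Their summed CPM was at most 0.56 in WT and 8.27 in Cnp-Cre Jab1fl/fl and reached 152 in double-mutant replicate 3, where the calprotectin genes S100a8 and S100a9 had 5294 and 3471 counts. In Cnp-Cre Jab1fl/fl replicate 4 the counts of S100a8, S100a9, Retnlg and Ngp were all 0, and in double-mutant replicate 1 they were 38, 0, 0 and 0. The part of neutrophils in the Lcn2 of double-mutant replicate 3 was not tested.

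**Figure D4:**
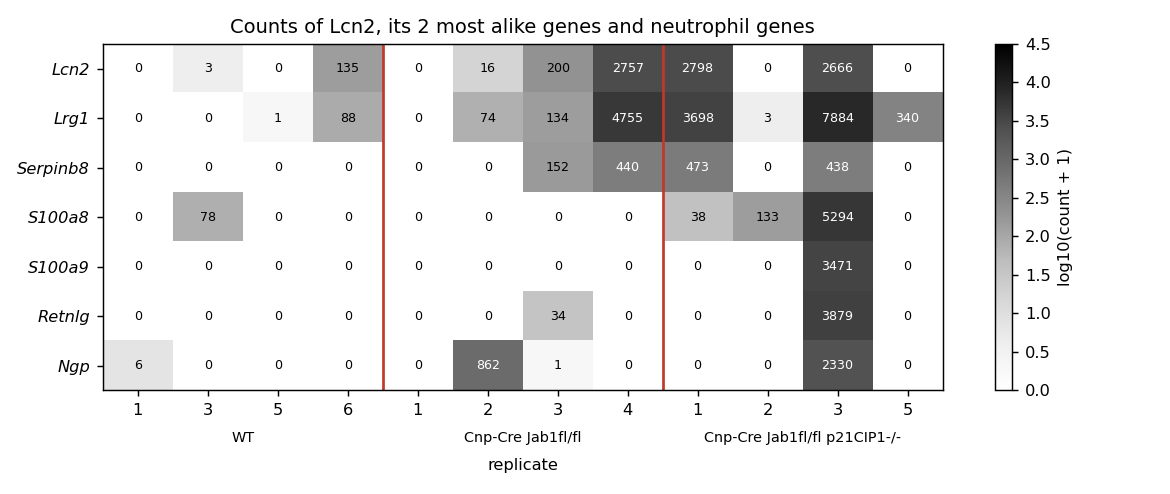
Raw counts of Lcn2, of the genes Lrg1 and Serpinb8 that resembled it most, and of 4 neutrophil genes in the 12 samples, shaded by log10(count + 1). Lcn2, Lrg1 and Serpinb8 were high together in Cnp-Cre Jab1fl/fl replicate 4 and double-mutant replicates 1 and 3, and of these libraries the neutrophil genes were high in double-mutant replicate 3.

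Some of the genes described in reactive astrocytes were higher in Cnp-Cre Jab1fl/fl than in WT, and none was called lower. Of 10 pan-reactive genes 9 were tested, 4 were called higher and 0 lower, with a median log2 fold change of 2.10. The share of all genes called, higher or lower, was 7.64%. Those called were Cxcl10, a chemokine induced by interferon (8.74, SE 1.48, edgeR adjusted p = 0.0068), Cp, the copper oxidase ceruloplasmin (2.83, SE 0.54, adjusted p = 0.0109), Timp1, an inhibitor of matrix proteases (adjusted p = 0.022), and Hspb1, a small heat shock protein (2.10, SE 0.53, adjusted p = 0.0364). Timp1 had at most 1 count in any WT sample and a mean of 3.87 CPM in Cnp-Cre Jab1fl/fl, where 1 sample was also at 0, so no fold is given. In double mutants 0 of the 9 were called, with a median of 2.14. The unadjusted p of edgeR was below 0.05 for 6 of them, all higher, and for 12.4% of all genes.

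The genes of the A1 list, defined in astrocytes after inflammatory stimulation, were the list with most calls among the reactive genes. Of 12 genes 11 were tested, 7 were called higher and 0 lower, beside 7.64% of all genes called, and the median log2 fold change was 2.59. The 3 with the smallest p were Iigp1, an interferon-induced GTPase (3.83, SE 0.59, edgeR adjusted p = 0.0045), H2-D1, an MHC class I heavy chain (2.48, SE 0.39, adjusted p = 0.0047), and Psmb8, a subunit of the immunoproteasome (3.81, SE 0.63, adjusted p = 0.0065). H2-D1 belongs to a family of near-identical copies, so its count is uncertain. Also called were H2-T23, another MHC class I gene, Serping1, the inhibitor of complement C1, Fkbp5, a chaperone induced by glucocorticoids, and Srgn, a proteoglycan of secretory granules that blood and immune cells express strongly. In double mutants against WT 0 of the 11 were called, with a median of 2.85. The unadjusted p of edgeR was below 0.05 for 8 of them, all higher, and for 12.4% of all genes.

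Of the 12 genes of the A2 list, defined in astrocytes after ischemia, 7 were tested. Called higher were 3 and lower 0, with a median of 2.25, beside 7.64% of all genes called. The A2 genes called were Clcf1, a cytokine of the IL-6 family (adjusted p = 0.0094 by edgeR, at most 2 counts in any WT sample), Cd14, a receptor for bacterial lipopolysaccharide that microglia express (3.28, SE 0.64, adjusted p = 0.0119), and Tm4sf1, a membrane protein abundant in endothelium (2.25, SE 0.50, adjusted p = 0.0219). In double mutants 0 were called, with a median of 2.46. Of 7 regulators of reactivity 6 were tested and 0 were called in either mutant, with medians of 0.27 and 0.32. Among them Socs3, the feedback inhibitor of STAT3, was at 2.25 in Cnp-Cre Jab1fl/fl (SE 0.69, adjusted p = 0.0743) and Stat3 itself, an activator of Gfap in reactive astrocytes, was at 0.05 (SE 0.29, adjusted p = 0.949).

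The reactive lists did not move alone. In Cnp-Cre Jab1fl/fl against WT 11 of 11 microglial markers were called higher, with a median log2 fold change of 3.81, and Trem2, a lipid receptor of microglia, was at 5.62 (SE 0.55, edgeR adjusted p = 5.34e-04) and Aif1, which encodes IBA1, at 5.26 (SE 0.52, adjusted p = 5.49e-04). Of 5 choroid plexus markers 2 were called higher, of 6 ependymal markers 1, and of 8 neuronal markers 0, with a median of 1.498. Of all genes tested, 7.64% were called in this comparison, higher or lower. Of 10 mature oligodendrocyte markers 6 were called lower and 4 did not pass, with a median of -2.23, and of 8 markers of oligodendrocyte progenitors 1 was called higher and 2 lower. In double mutants against WT 0 markers of these lists were called, beside 0.192% of all genes. The unadjusted p of edgeR was below 0.05 there for 11 of 11 microglial, 6 of 6 endothelial and 4 of 5 choroid plexus markers, all higher. It was also below 0.05 for 3 of 8 neuronal and 1 of 6 ependymal markers, all higher. Lower at that threshold were 6 of 10 mature oligodendrocyte and 1 of 8 progenitor markers, beside 12.4% of all genes, higher or lower. The median was 4.71 for microglia, 2.10 for endothelium, 2.12 for choroid plexus and -1.38 for mature oligodendrocytes. The microglial value rests largely on replicate 3, since the summed CPM of those markers were 253, 620, 12949 and 1334 in the 4 double-mutant samples, with a median of 977 against 1657 in Cnp-Cre Jab1fl/fl. The part of other cell types in the reactive lists was not tested.

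**Figure D5:**
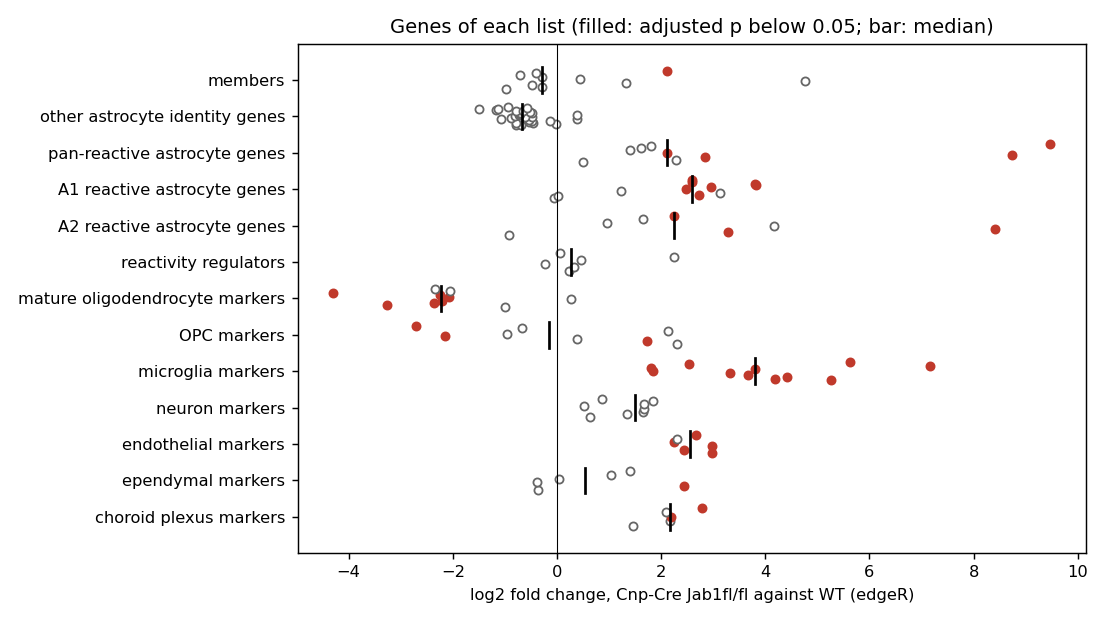
The log2 fold change of every tested gene of each list in Cnp-Cre Jab1fl/fl against WT, with filled points for an adjusted p below 0.05 and a bar at the median of the list. The astrocyte identity genes lay mostly below 0, while the 9 pan-reactive genes, 10 of 11 A1 genes and 6 of 7 A2 genes lay above 0, as did the 11 microglial and 6 endothelial markers.

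Between double mutants and Cnp-Cre Jab1fl/fl no member could be separated. Of the 10 members 0 passed, and the share of all genes that passed was 0%, with 885 genes at an unadjusted p below 0.05, while DESeq2 called 87 genes and 0 members. The difference on the log2 scale was 0.38 for Gfap (SE 0.50), 0.38 for Vim (SE 0.58), 0.71 for Aldh1l1 (SE 0.47), 0.55 for Sox9 (SE 0.39) and -0.20 for S100b (SE 0.28), with adjusted p-values of at least 0.996 in edgeR. Of the 10 members 9 were above 0, with a median of 0.38, and of the 28 other identity genes 25 were above 0, with a median of 0.32 beside 0.02 for all genes, and 0 of them passed. Members with groups that do not overlap numbered 0, and 3.22% of all genes tested had such groups. In the same comparison Cdkn1a was lower in every double-mutant sample than in any Cnp-Cre Jab1fl/fl sample, at -2.35 (SE 0.32), with an adjusted p of 0.0916.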

How the data were processed

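RNA was measured in 12 samples of O1+ CD45- cells, 4 per genotype, with groups and replicate numbers from the labels. The authors amplified the RNA with SMART-Seq v4, sequenced paired ends, used Trimmomatic 0.32 for trimming and STAR 2.5.3a for alignment to GRCm38, and obtained raw counts for each gene symbol from featureCounts with GENCODE basic genes, which are the deposited unit, with no normalization. Whether counting used strand or reads with several matches is not given in the sources used here. Positions and exonic lengths are from GENCODE M21, in which 54510 symbols were matched.

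CPM were computed with TMM factors, except in the filters. The test was edgeR 4.0.16 in R 4.3.3 on the 8 samples compared, and samples are treated as independent. On simulated counts for Cnp-Cre Jab1fl/fl against WT, with 200 of 17716 genes changed by 3 on the log2 scale, 56.5% were recovered and 2.59% of calls were false. All 10 members are named. From each other list the 3 genes with the smallest p in Cnp-Cre Jab1fl/fl against WT were eligible, and other genes named were chosen after their values were seen. The members, lists and tests were chosen with earlier results of these data known. Alternatives were DESeq2 1.42.0, limma-voom 3.58.1 with sample weights, other scalings and filters, all 12 samples in 1 fit, the replicate number as a block and each sample left out. The intervals and floors cover counting error only. Samples of 1 genotype differed by more than sampling noise. Values of some list genes are left out of the text.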

Additional observations from a re-analysis of the deposited data

Results flagged for a closer look

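In groups of 4 samples, a sample was set apart where its gap to the next sample exceeded 0.829 of the whole range of the group. Of 30 groups, 10 genes in 3 genotypes, 5 held such a sample, where chance gives about 1 in 20 groups. Gfap in WT replicate 3 stood above the other WT samples, at 5.34 on the log2(CPM + 1) scale. Lcn2 in WT replicate 6 stood above the other WT samples, at 1.30. Cnp-Cre Jab1fl/fl replicate 4 stood below the others of its genotype for Aqp4, at 7.47, and for Sox9, at 6.57. Double-mutant replicate 1 stood below the others of its genotype for Sox9, at 6.06.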

How the results depend on the processing

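With DESeq2, 2689 genes were called in Cnp-Cre Jab1fl/fl against WT, 862 in double mutants against WT and 87 between the mutants, where edgeR called 1354, 34 and 0. DESeq2 called 1 member and 16 other reactive or identity genes in double mutants, and 22 such genes in Cnp-Cre Jab1fl/fl, where edgeR called 0, 0 and 14. With limma-voom 2 members were called in Cnp-Cre Jab1fl/fl, the second being Gfap (1.81, adjusted p = 0.0157), 2 list genes in double mutants and 1 gene between the mutants. With a mean of at least 10 CPM, 140 genes, 6 list genes and 1 member were called in double mutants and 5 genes between the mutants. With no filter 21 genes were called in double mutants, and with all 12 samples in 1 fit 164 genes and 5 list genes.

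Deviations of same-numbered samples correlated between -0.19 and 0.08. Few numbers are shared between genotypes, so these values cannot decide whether the numbers pair the samples. With the replicate block, 0 members, 718 genes and 9 list genes were called in Cnp-Cre Jab1fl/fl and 1 gene in double mutants, Vim was 1.54 (adjusted p = 0.204) in Cnp-Cre Jab1fl/fl, and values of the other sign were -0.0083 for Aldoc in double mutants against WT, and -0.10 for Gfap, -0.23 for Aqp4 and -0.0227 for Aldoc between the mutants. With the astrocyte level as a covariate, chosen after seeing the data, 540 genes were called in Cnp-Cre Jab1fl/fl and 101 in double mutants, Lcn2 turned to -0.91 in Cnp-Cre Jab1fl/fl, and Gfap turned to -0.19 between the mutants.

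Leaving out each sample in turn gave 1 to 2 members, 678 to 1863 genes and 9 to 14 list genes in Cnp-Cre Jab1fl/fl, 0 to 1 members, 1 to 274 genes and 0 to 8 list genes in double mutants, and 0 to 2 genes between the mutants. The largest counts came without Cnp-Cre Jab1fl/fl replicate 2 and without double-mutant replicate 1. The sign of small differences turned with 1 sample left out: in Cnp-Cre Jab1fl/fl Sox9 ran from -0.65 to 0.0388, and in double mutants Sox9 from -0.0872 to 0.60 (-0.0872 and -0.0266 without WT replicates 5 and 1), Aldh1l1 from -0.54 to 0.14 (0.0180 without double-mutant replicate 1), Aldoc from -0.12 to 0.28 (-0.0833 and -0.0136 without WT replicate 5 and double-mutant replicate 5) and S100b from -0.0425 to 0.42. Between the mutants Aqp4 ran from -0.19 to 0.27 (-0.16 without Cnp-Cre Jab1fl/fl replicate 4), Slc1a2 from -0.0454 to 0.31 (-0.0043 and -0.0328 without Cnp-Cre Jab1fl/fl replicate 4 and double-mutant replicate 2) and Lcn2 from -0.22 to 3.83. Other settings that turned a sign were limma-voom for Aldoc in double mutants (-0.0957), for Slc1a2 (-0.0335) and Lcn2 (-0.73) between the mutants, no filter for Aldoc in double mutants (-0.0124), and at least 10 CPM for Aqp4 between the mutants (-0.0180). None of the results whose sign turned had passed the test, and the cause of these changes was not tested. With 4 samples per genotype, the spread between samples and not depth limited the precision, except for Lcn2, Timp1 and Clcf1 in samples at or near 0 counts.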
